A study of Mus musculus with 6 samples.

Results

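Immediate early genes are transcribed within minutes of a stimulus, without the need for new protein, and 10 of them are described here across sorted macrophages and leukemia cells of mice with and without iron overload. The 10 genes, out of 54532 genes measured, were Fos, Fosb, Jun, Junb, Atf3, Egr1, Nr4a1, Ier2, Dusp1 and Zfp36. They were chosen by their FPKM, which was higher with iron in the leukemia cells, so their values in that comparison are given as a description and support nothing by themselves. All 10 passed the minimum of reads in every comparison below.

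FOS and JUN proteins pair through a leucine zipper to form AP-1, a transcription factor that JUN proteins can also form among themselves, whereas FOS proteins need a partner. Growth factors, cytokines and cell stress reach these genes through MAP kinases, which act on the serum response factor and its partners and on CREB and ATF proteins at the promoters. The mRNAs are short lived, and among the products are proteins that end the response, such as the phosphatase DUSP1 and the mRNA decay factor ZFP36. In myeloid cells these genes accompany differentiation and inflammatory activation, and they are also known to respond to the handling and dissociation of tissue.

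The study asked how iron overload changes the leukemic environment, and 6 libraries were deposited, 1 for each condition. C57BL/6 mice without leukemia received PBS (WT) or iron dextran (WT/FE) by intraperitoneal injection, and mice transplanted with MLL-AF9 leukemia cells received PBS (MA9) or iron dextran (MA9/FE). MLL-AF9 is a fusion oncogene, here carried with GFP by a retrovirus into c-Kit+ bone marrow (BM) cells, and the leukemia is thus a transplanted one. Macrophages were sequenced from all 4 kinds of mice, and leukemia cells from both kinds of leukemic mice. By the labels, the macrophages came from the spleen and the leukemia cells from the BM, whereas the methods of the study describe macrophages from the BM, sorted as GFP-negative, Gr-1lo, F4/80+ and CD115int cells. The mice were young adults by the study's methods, and how many were behind a library is not given in the sources used here. With 1 library per condition no spread between mice is known, and the interval of a level or a fold change covers counting error only.

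The values are FPKM (fragments scaled to exon length and to library size), and the value of 1 read in each library put the depth at between 16085347 and 19518359 reads. The leukemia cell libraries carried the marks of an MLL-AF9 leukemia, with a summed FPKM of 164 and 163 over 8 target genes such as Hoxa9 and Meis1, against between 20.4 and 24.0 in the macrophage libraries. The macrophage libraries held all 15 macrophage markers, with a summed FPKM of 452, 796, 428 and 1009 in the WT, WT/FE, MA9 and MA9/FE libraries, but also 10 B cell markers with a summed FPKM of 2286, 2156, 1277 and 2209. The values below are therefore those of the sorted libraries, and fewer cells of a type cannot be told apart from less RNA per cell. Leukemia cells held a summed macrophage marker FPKM of 234 without and 238 with iron, and the markers with the highest levels there, Cd68 and Csf1r, are also made by other myeloid cells.

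The promoters below are shown for the motifs found in them, which are not all shared between members. Fos, Fosb and Dusp1 were taken for the largest differences with iron in leukemia cells, and Junb and Zfp36 for small ones. Each is 150 bases from RefSeq (GRCm38.p6), 5′ to 3′ on the strand of the gene, ending just before the start site (for Dusp1, at position -61). Capitals mark the CREB and ATF core TGACG, its palindrome TGACGTCA, and the CArG box that serum response factor binds.
Fos (chr12:85473740-85473889, plus strand): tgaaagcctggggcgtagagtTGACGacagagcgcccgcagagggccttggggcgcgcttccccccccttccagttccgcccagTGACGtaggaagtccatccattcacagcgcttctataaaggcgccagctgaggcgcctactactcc
Fosb (chr7:19310046-19310195, minus strand): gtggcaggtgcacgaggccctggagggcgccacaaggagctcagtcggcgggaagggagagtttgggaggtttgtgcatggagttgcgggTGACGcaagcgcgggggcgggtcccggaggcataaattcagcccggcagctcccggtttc
Dusp1 (chr17:26508533-26508682, minus strand): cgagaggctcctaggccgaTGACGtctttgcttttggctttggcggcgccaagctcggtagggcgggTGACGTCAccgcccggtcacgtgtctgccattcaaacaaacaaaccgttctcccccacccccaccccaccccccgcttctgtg
Junb (chr8:84978749-84978898, minus strand): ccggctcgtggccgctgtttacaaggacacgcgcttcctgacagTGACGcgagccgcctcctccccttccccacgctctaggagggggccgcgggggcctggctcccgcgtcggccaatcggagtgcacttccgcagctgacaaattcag
Zfp36 (chr7:28379229-28379378, minus strand): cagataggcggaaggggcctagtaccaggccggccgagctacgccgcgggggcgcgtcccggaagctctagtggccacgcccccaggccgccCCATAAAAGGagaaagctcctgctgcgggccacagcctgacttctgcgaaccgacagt

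TGACG stood on either strand in the RefSeq window (250 bases before to 50 after the start) in 6 of the 8 members searched (Fos, Fosb, Junb, Atf3, Nr4a1 and Dusp1), against 20.8% of 32841 promoters of the same length. Egr1 and Ier2 were not searched, and every motif was looked for on both strands. Fos had the core at -129 and at -66, Fosb at -60 and Junb at -106, and Nr4a1 had 4 copies. TGACGTCA, which holds TGACG on both strands, stood in Dusp1 from -143 to -136, against 1.79% of promoters. The Jun promoter held the variant TGACATCA at -45 (3.62% of promoters), a form that JUN and ATF2 are known to bind. A CArG box stood in Zfp36 alone of the 8, from -58 to -49 (1.63% of promoters). For the others this says only that it is not in this window, and sites farther from the start were not searched. GCGNGGGCG, the EGR motif, stood in Fosb, Zfp36 and Nr4a1 (5.55% of promoters). The AP-1 site TGANTCA stood in 0 of the 8, against 7.81% of promoters, which says only that these letters are not in this window. The 8 promoters were also rich in CpG, with a median of 23 CpG and 65% GC, against 7 CpG and 52.7% GC over all promoters. TGACG and the EGR motif each hold a CpG themselves. The shares over all promoters were not matched for CpG, so the motif counts do not show enrichment.

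The members are compact genes. Their median span was 4698.5 bases in the GENCODE annotation, and 7 of the 10 (70%) spanned under 10000 bases, against 35.5% of 21918 protein-coding genes. Fos lies at chr12:85473890-85477273, Fosb at chr7:19302696-19310051, Jun at chr4:95049034-95052222, Junb at chr8:84974484-84978718 and Atf3 at chr1:191170296-191218039 (GRCm38). Ier2 lies at chr8:84661331-84662852, Dusp1 at chr17:26505590-26562128, Nr4a1 at chr15:101254269-101274795, Zfp36 at chr7:28376784-28380253 and Egr1 on chromosome 18. A gene on the opposite strand overlaps 5 of the 10, and whether the counting used strand is not given in the sources used here. Most of the overlapping genes were low beside the members: Ergic1, at the edge of Dusp1, had at most 13.6 FPKM, and all others but Prdx2 stayed under 1 FPKM. Prdx2, at the end of Junb, had between 23.9 and 48.3 FPKM over the libraries. Junb itself was at 76.3 and 91.1 FPKM in MA9 and MA9/FE leukemia cells. The part of Prdx2 reads in the Junb values was not tested.

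In leukemia cells, all 10 genes had a higher FPKM with iron than without, which is what they were picked for. The FOS subunits led. Fos, the prototype of the class, stood at 94.7 FPKM without and 299.8 with iron, a fold of 3.14 (log2 fold change 1.65, counting interval 1.60 to 1.70). Fosb, its close relative, went from 24.4 to 91.4 FPKM, a fold of 3.63 (1.86, 1.80 to 1.92). Among 15396 genes ordered by log2 fold change, Fosb was at place 9 and Fos at place 16 from the top, and Fos is the more abundant mRNA in both libraries. The JUN partners differed less. Jun was at 132 FPKM without and 212 with iron (log2 fold change 0.68, fold 1.60), and Junb at 76.3 and 91.1 (0.25, fold 1.19), the smallest difference of the 10. Atf3, a stress-induced ATF protein that can pair with JUN, was at 10.9 and 19.2 FPKM (0.76, fold 1.70).

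Of the other transcription factors, Egr1, a zinc finger factor of monocyte differentiation, was at 10.2 FPKM without and 21.9 with iron (log2 fold change 1.04, fold 2.05). Nr4a1, an orphan nuclear receptor, was at 14.4 and 27.3 (0.88, fold 1.84). A fold of 2 falls between these 2 genes, Egr1 just above it and Nr4a1 just below. These were, with Atf3, the members of lowest level in leukemia cells. Dusp1, the nuclear phosphatase that switches off p38 and JNK, was at 45.5 and 98.6 FPKM (1.10, fold 2.14). Zfp36 (tristetraprolin), which brings AU-rich mRNAs to decay, was at 101.5 and 141 (0.47, fold 1.38), and Ier2, a small nuclear protein gene, at 171 and 205 (0.26, fold 1.20). Ier2 was thus the highest of the 10 in MA9 leukemia cells, and in MA9/FE leukemia cells Fos was.

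A fold of at least 2 was reached by 4 of the 10, Fosb, Fos, Dusp1 and Egr1, where 0.864% of all genes reached it in either direction and 0.435% as higher. The rule used this comparison, so nothing is read from the count. The median log2 fold change of the members was 0.82, against 0.0026 over all genes. The members together took 0.185% of reads without and 0.352% with iron. Marker sums moved as well. Summed erythroid marker FPKM was 429 without and 164 with iron, with 5 of 9 markers at least 2-fold lower. Of 13 neutrophil markers, 12 were lower, at a summed FPKM of 5306 and 4166. These sums do not tell cell makeup from expression in the leukemia cells themselves. The part of these in the result was not tested. Of the 15 macrophage markers, 10 were lower and 5 higher with iron, from -0.68 to 0.61, and Cd68, Csf1r and Adgre1 made up most of their sum.

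**Figure D1:**
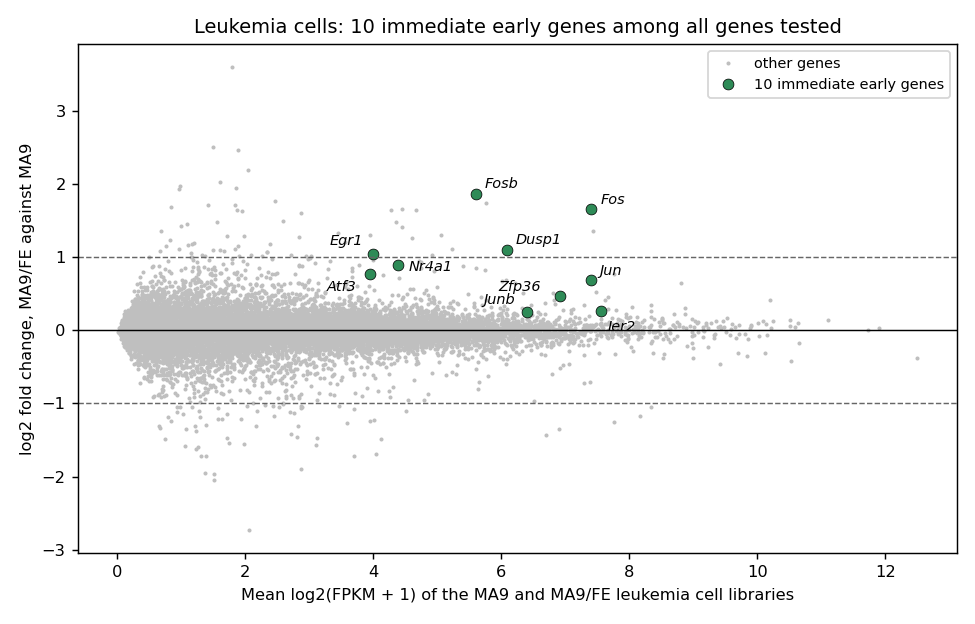
Log2 fold change of FPKM + 1 between the MA9/FE and MA9 leukemia cell libraries (vertical axis) against the mean log2(FPKM + 1) of both (horizontal axis). Grey points are all other genes tested, green points the 10 immediate early genes, and dashed lines a fold of 2. Fosb and Fos lie well above the upper line, Dusp1 and Egr1 lie just above the upper line, and the other 6 lie between 0 and that line.

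The level of each gene in the 6 libraries placed the leukemia cells against the macrophages. The leukemia cell levels are those that chose the genes, so their places against the macrophages are a description only. In MA9 leukemia cells 9 of the 10 were below all 4 macrophage libraries, Ier2 being the exception. In MA9/FE leukemia cells Fos, Jun and Ier2 lay inside the range of the macrophage libraries, Fosb lay above it, and the other 6 stayed below it. Fos reached 121% of the macrophage median with iron, from 38.4% without, and Fosb 121% from 32.3%. Jun went from 54.3% to 87.2% and Dusp1 from 27.2% to 59.0%. Nr4a1, from 7.93% to 15.1%, and Egr1, from 9.84% to 21.2%, remained far from macrophage levels. Of the 50 neighbouring pairs in the orders of levels, 13 had overlapping counting intervals, for example Jun in WT/FE macrophages and in MA9/FE leukemia cells.

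**Figure D2:**
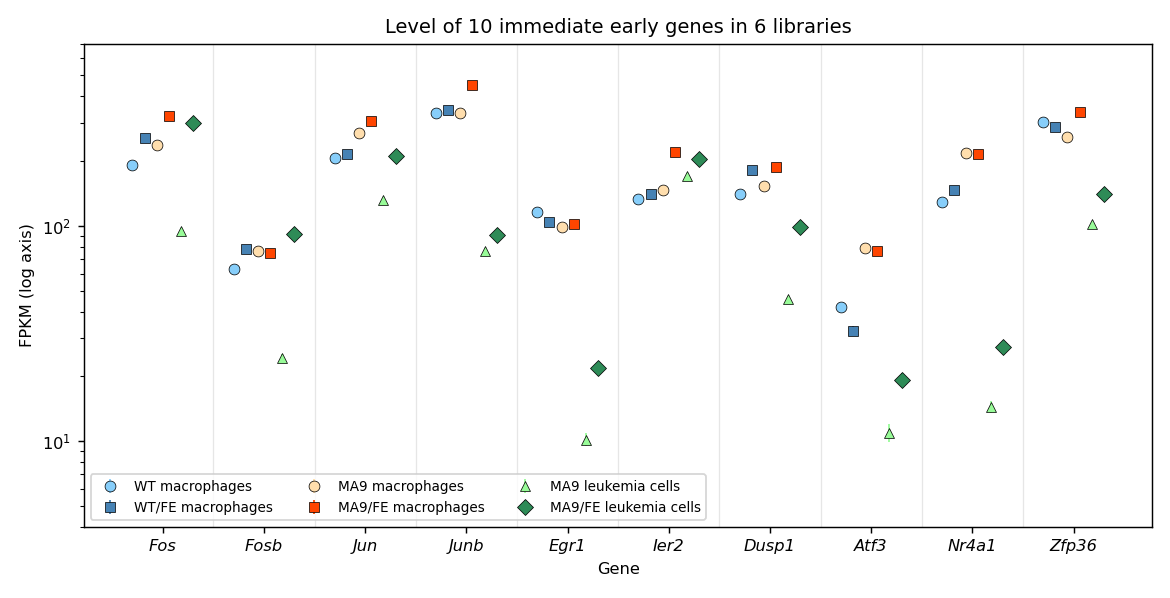
FPKM of each of the 10 genes (log axis) in the 6 libraries, with bars for the counting interval, mostly smaller than the symbols. MA9 leukemia cells (pale triangles) are the lowest library for all genes but Ier2, and MA9/FE leukemia cells (green diamonds) lie inside the macrophage range for Fos, Jun and Ier2 and above it for Fosb. The leukemia cell levels are those by which the genes were chosen.

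Because FOS proteins bind DNA only with a partner, the families were also summed. Fosl1, Fosl2 and Jund complete them and were named after their values were seen. The FOS family summed to 141 FPKM without and 412 with iron in leukemia cells, and the JUN family to 267 and 396. The ratio of FOS to JUN family FPKM was 0.527 without and 1.04 with iron, and in the macrophages it was 0.370 (WT), 0.455 (WT/FE), 0.425 (MA9) and 0.405 (MA9/FE), in that order of libraries. The MA9/FE leukemia cell library was thus the only one of the 6 in which FOS mRNA was not the lesser of both. This ratio contains the comparison that chose the genes, and it counts mRNA, not protein.

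The composition of the FOS family also set the cells apart. Fosl2 was at 19.9 and 19.8 FPKM in leukemia cells without and with iron and between 1.12 and 2.57 in macrophages. Fos and Fosb made up 84.6% of the FOS family in leukemia cells without iron and 94.9% with it, and at least 99.1% in macrophages. Jund was at 58.6 and 92.3 FPKM in leukemia cells (log2 fold change 0.65) and between 141 and 232 in macrophages, and its share of the JUN family was 22.0% and 23.3% in the leukemia cells. Junb was the main JUN gene of the macrophages, at 335 to 452 FPKM, and in leukemia cells Jun was.

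**Figure D3:**
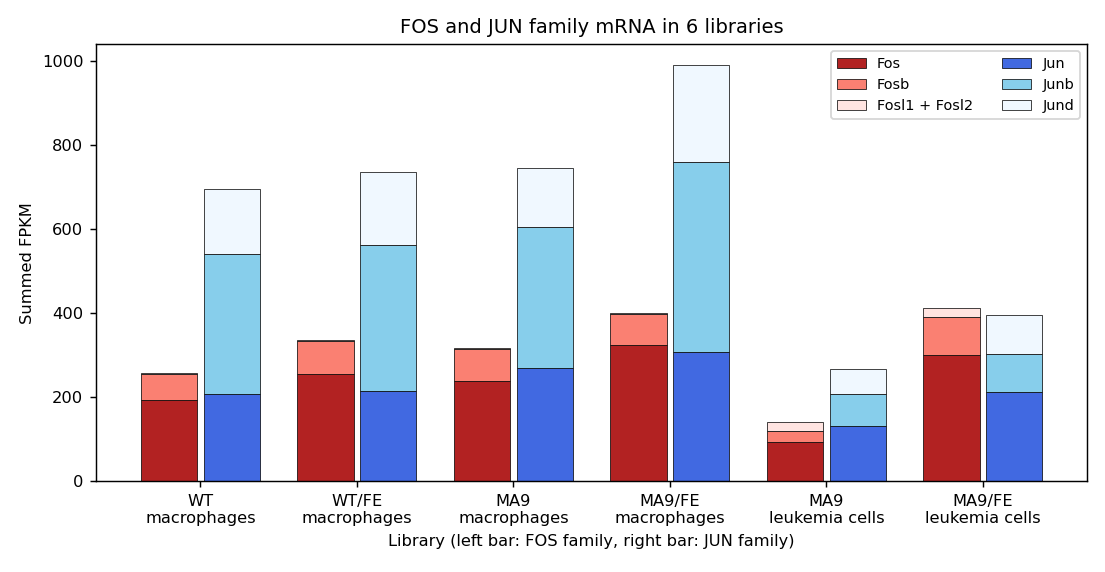
Summed FPKM of the FOS family (left bar of each pair: Fos, Fosb, and Fosl1 with Fosl2) and of the JUN family (right bar: Jun, Junb, Jund) in each library. The left bar is lower than the right in 5 libraries and slightly higher in MA9/FE leukemia cells, 412 against 396.

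Other immediate early genes were read in the same 2 leukemia cell libraries. Of 25 on the list, 21 were tested, 16 were above and 5 below 0, where 50.7% of all genes were above 0, and the median log2 fold change was 0.29. A fold of 2 was reached by Klf2 (107 to 277 FPKM, log2 fold change 1.36) and Klf4 (24.6 to 54.5, 1.11), Krueppel-like factors that act in quiescence and monocyte differentiation. Over all genes, 0.864% reached a fold of 2 in either direction and 0.435% as higher. A count of 0 in a short list is near that share, and nothing is read from it. Of 15 other bZIP partners of AP-1, 0 reached a fold of 2, and the median was -0.01. The kinases and factors upstream, 21 genes of the MAP kinase and SRF pathway, had a median of 0.02 and a range of -0.19 to 0.32, and 14 feedback inhibitors a median of 0.07, with 0 at a fold of 2 in either list. Inflammatory primary response genes, such as cytokines and NF-kB inhibitors, had a median of -0.05 over 17 tested, again with 0 at a fold of 2. They ranged from -0.84 to 0.98. Heat shock genes, which mark protein damage, had a median of -0.10 over 14 tested. Only Hspa1a among them reached a fold of 2 (0.82 to 2.68 FPKM, 1.02). These lists were fitted to the topic with earlier results of the data known, and are a description.

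**Figure D4:**
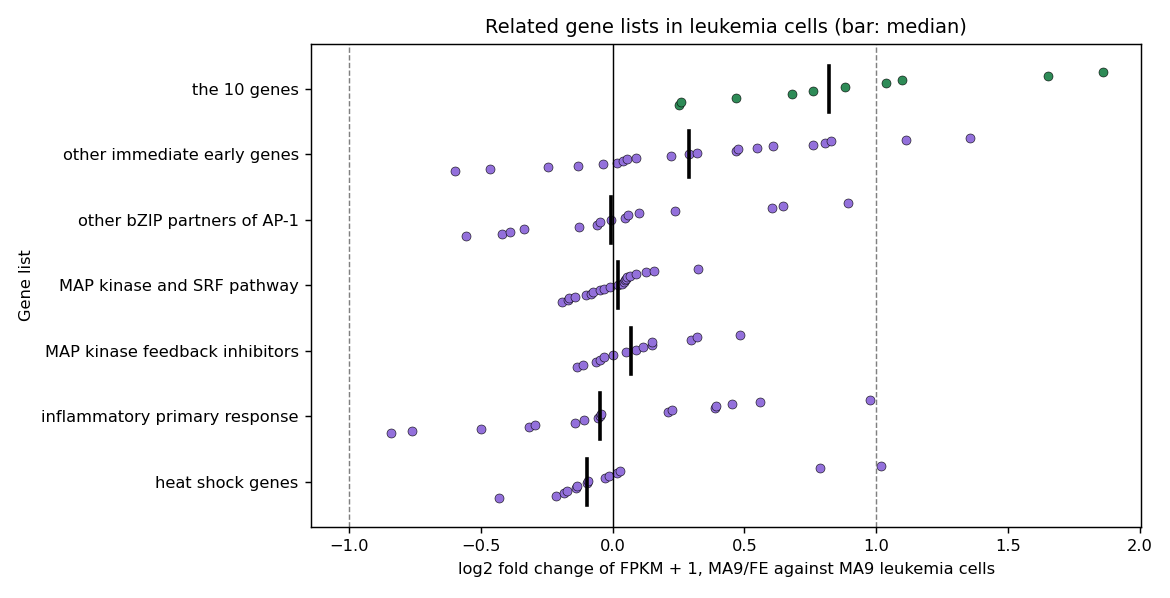
Log2 fold change of FPKM + 1 between MA9/FE and MA9 leukemia cells for each gene (points) of 7 lists, with a bar at the median and dashed lines at a fold of 2. The 10 genes lie wholly to the right of 0 because they were picked so, the other immediate early genes spread from -0.60 to 1.36, and the pathway, feedback, inflammatory and heat shock lists centre near 0.

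Over the 6 libraries, the genes were compared with Fos by the root mean square difference of centred log2(FPKM + 1), a measure of likeness in which 0 means the same profile. Among 12052 genes with at least 100 reads in a library, Fosb was the nearest (0.18). The nearest genes outside the 10 were the chemokine gene Ccl6 (0.22), Klf2 (0.22), 4930413G21Rik (0.31), the small GTPase gene Gem (0.34) and the ribosomal protein gene Rpl17 (0.35). Jun was at place 4 (0.31) and Dusp1 at place 15 (0.39). Junb (0.85, place 9119) and Nr4a1 (1.22, place 10908) were far from Fos, since they differed between macrophages and leukemia cells in both the PBS and the iron libraries. The 6 points include the pair that chose the members.

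In macrophages, which the choice of genes did not use, the iron comparison gave small differences. Without leukemia, Fos was at 192 FPKM in WT and 255 in WT/FE macrophages (log2 fold change 0.40), and Dusp1 at 141 and 182 (0.36). Fosb was at 63.4 and 78.0 (0.29) and Nr4a1 at 129.8 and 146 (0.16). These 4 were the higher ones, whereas Ier2, Jun and Junb lay between 0.04 and 0.08. Atf3 was at 41.9 and 32.5 (-0.36), Egr1 at 116 and 104 (-0.16) and Zfp36 at 303 and 288 (-0.08), so 3 of the 10 were lower with iron. A fold of 2 was reached by 0 of the 10, against 1.27% of all genes, and the median was 0.07.

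In the macrophages of leukemic mice, Ier2 was at 146 FPKM without and 220.1 with iron (log2 fold change 0.62), Fos at 238 and 324 (0.48) and Junb at 335 and 452 (0.47). Zfp36 was at 259.7 and 339 (0.42), Dusp1 at 153 and 188 (0.34) and Jun at 271 and 307 (0.22). The other 4 hardly differed: Egr1 was at 99.3 and 102 (0.08), Nr4a1 at 217 and 216 (0.03), Fosb at 76.1 and 74.9 (0.01) and Atf3 at 79.1 and 76.3 (-0.02). For Fosb, Nr4a1 and Atf3 the counting interval held 0. A fold of 2 was reached by 0 of the 10, against 2.46% of all genes, with a median of 0.28. The median was 0.20 with the trend of fold changes on exon length removed, and the signs of Fosb and Nr4a1 turned with other scalings.

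Fitted together in limma as an additive model over the 4 macrophage libraries, 0 of the 10 genes differed with iron at an adjusted p of 0.05, where 2 of 16253 genes passed (0.0123%). At an unadjusted p under 0.05 limma gave 618 genes, with Fos the only one of the 10 among them (0.43 ± 0.17 SE, limma adjusted p = 1.0). The model has 1 residual degree of freedom, which is the iron by leukemia interaction. Its SE and p cannot tell that interaction from the spread between mice, which was not measured within a condition. A p that misses the threshold does not show that the genes were alike. In these libraries the iron samples also carried more macrophage marker mRNA: all 15 markers were higher in both pairs, at a median log2 fold change of 0.95 without and 0.96 with leukemia. In the macrophages of leukemic mice, all 10 B cell markers (median 0.57) and 8 of 9 T cell markers (median 0.48) were higher with iron too, and 12 of 13 neutrophil markers were lower (median -0.89, summed FPKM 1898 and 962). The part of these in the values of the 10 genes was not tested. Set beside each other, the iron difference of Fosb was 1.86 in leukemia cells, 0.29 in macrophages without and 0.01 in macrophages with leukemia. In the same order, Fos gave 1.65, 0.40 and 0.48. Ier2 (0.26, 0.08 and 0.62) and Junb (0.25, 0.04 and 0.47) had their largest difference in macrophages with leukemia, the other members in leukemia cells. The leukemia cell values are those that chose the genes, so nothing is read from their larger size.

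**Figure D5:**
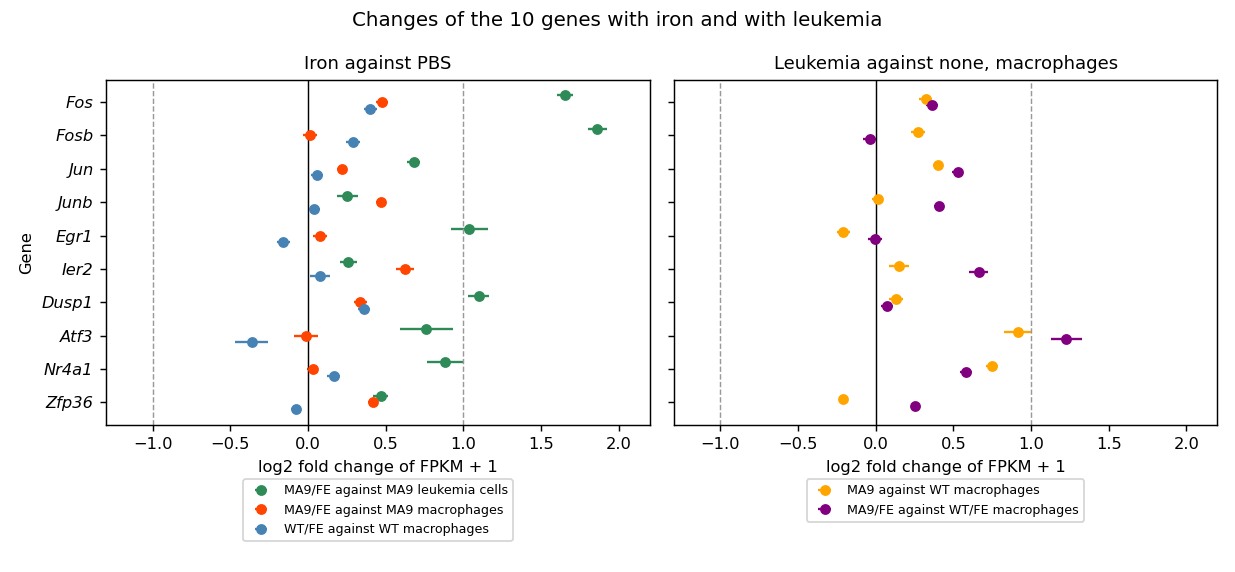
Log2 fold changes of FPKM + 1 for the 10 genes, iron against PBS (left: leukemia cells in green, macrophages with leukemia in red and without in blue) and leukemia against none in macrophages (right: PBS in orange, iron in purple), with bars for the counting interval and dashed lines at a fold of 2. In the left panel only leukemia cells pass the right dashed line, for Fos, Fosb, Egr1 and Dusp1, and in the right panel Atf3 lies farthest to the right.

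Leukemia itself came with higher Atf3 in the macrophage libraries, the same 4 that gave the iron differences above. Atf3 was at 41.9 FPKM in WT and 79.1 in MA9 macrophages (log2 fold change 0.91), and at 32.5 in WT/FE and 76.3 in MA9/FE (1.23), so that both libraries from leukemic mice lay above both from mice without leukemia. Nr4a1 was at 129.8 and 217 (0.75), and at 146 and 216 with iron (0.58). Jun was at 207 and 271 (0.40), and at 216 and 307 with iron (0.53). Fos followed at 0.32 and 0.36. Zfp36 was lower without iron (-0.21) and higher with it (0.26), and Egr1 was at -0.21 and -0.0049. Fosb was at 0.27 and -0.04, Ier2 at 0.15 and 0.66, Junb at 0.01 and 0.41 and Dusp1 at 0.13 and 0.07. The sign turned for Junb without iron under other scalings (-0.0015 with total scaling), and for Fosb (0.017) and Dusp1 (-0.021) with iron when the trend on exon length was removed. The members' median was 0.21 without and 0.38 with iron, the latter being 0.24 with the trend on exon length removed. A fold of 2 was reached by 0 of the 10 without iron (4.70% of all genes) and by Atf3 with iron (4.56% of all genes, 2.93% as higher).

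In the additive limma fit, 1 of the 10 was higher in macrophages with leukemia, Atf3 (1.08 ± 0.18 SE, 4 libraries, limma adjusted p = 0.042), where 2.23% of 16253 genes passed, 2.09% as higher. Atf3 no longer passed with a pseudocount of 0.1 or with no minimum of reads. As for iron, the SE and p in this fit rest on the interaction and not on replicate libraries of a condition. Nr4a1 (0.67 ± 0.17 SE, limma adjusted p = 0.13) and Jun (0.47 ± 0.17 SE, limma adjusted p = 0.27) did not pass. Of 23 other immediate early genes tested, 1 passed, Nr4a2, a receptor of the same family as Nr4a1, which was at 1.25 and 1.55 FPKM in the WT and WT/FE libraries and at 4.61 and 4.30 in the libraries of leukemic mice (1.20 ± 0.18 SE, limma adjusted p = 0.032). The inducible HSP70 genes Hspa1a (1.73 ± 0.20 SE, limma adjusted p = 0.019) and Hspa1b (1.65 ± 0.22 SE, limma adjusted p = 0.023), and the chemokine gene Ccl4 (1.33 ± 0.18 SE, limma adjusted p = 0.023), passed as higher too. With no minimum of reads, 0 genes passed (2880 at an unadjusted p under 0.05), so these calls were lost as well. Heat shock genes were above 0 in 14 of 15 (median 0.47) without and in 15 of 15 (median 0.73) with iron. Of all genes, 49.5% and 51.4% were above 0 in these pairs. The MA9 and MA9/FE macrophage libraries also held 1898 and 962 summed FPKM of 13 neutrophil markers, against 11.5 and 9.02 in WT and WT/FE. All 9 erythroid markers were higher with leukemia in both pairs (medians 1.58 and 1.40), at a summed FPKM of 96.8 and 209 in WT and WT/FE against 282 and 511, and 7 of the 9 passed in limma. All 10 B cell markers were lower with leukemia in the pair without iron (median -0.73). The part of these in the Atf3 result was not tested.

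Leukemia cells were compared with macrophages of the same kind of mice, where organ and cell type cannot be told apart if the labels hold. These comparisons share their libraries with those above, and their leukemia cell values are those that chose the genes. A choice by higher levels with iron favours low levels without it, so the counts of members here are a description only. Without iron, 9 of the 10 genes were at least 2-fold lower in leukemia cells (20.0% of all genes reached a fold of 2, 12.7% as lower), with a median log2 fold change of -1.69. Nr4a1 was lowest (-3.86, 14.4 against 217 FPKM), then Egr1 (-3.20, 10.2 against 99.3), Atf3 (-2.78) and Junb (-2.15). Ier2 was the exception, slightly higher in leukemia cells (0.19, 171 against 146 FPKM). With iron, 5 of the 10 were at least 2-fold lower (22.7% of all genes, 13.2% as lower), with a median of -1.12. The 5 were Nr4a1 (-2.96), Junb (-2.33), Egr1 (-2.20), Atf3 (-1.96) and Zfp36 (-1.29). Fos (-0.14) and Ier2 (-0.13) were near level, and Fosb was the one gene higher in leukemia cells (0.26, 91.4 against 74.9 FPKM). Dusp1 was at -0.95 and Jun at -0.56.

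In a limma fit over these 4 libraries, 39.4% of 16271 genes passed and 21.4% as lower in leukemia cells. The members are given by their estimates only, because the leukemia cell values in the fit are those that chose them. Nr4a1 (10.6-fold, -3.41 ± 0.24 SE), Egr1 (6.50-fold, -2.70 ± 0.26 SE) and Atf3 (5.17-fold, -2.37 ± 0.23 SE) differed the most. Junb followed (4.72-fold, -2.24 ± 0.15 SE). Dusp1 (-1.35 ± 0.23), Zfp36 (-1.33 ± 0.15) and Jun (-0.81 ± 0.18) were lower as well. Fos was at -0.75 ± 0.30 SE, Fosb at -0.69 ± 0.43 SE and Ier2 at 0.03 ± 0.16 SE. The spread in this fit takes in the iron difference of leukemia cells that chose the genes, which widens the errors of Fos and Fosb in particular. A p of a member would thus depend in part on that choice, and the values of the members are a description only.

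The same comparison in the wider pathway gave both directions. Of 23 other immediate early genes, 11 passed in limma as lower and 3 as higher in leukemia cells. Id3 (-4.29), Egr3 (-3.31), Ier5 (-3.12), Btg2 (-2.74) and Nr4a3 (-2.39) differed the most. The 3 higher ones, named after their values were seen, were Id1 (2.06), Rhob (0.77) and Klf10 (0.55). Of 15 bZIP partners, 4 were lower, led by Batf3 (-4.57), and 5 higher, led by Fosl2 (2.66) and Cebpd (2.44). Of 19 inflammatory primary response genes, 15 were lower and 3 higher, the latter being the chemokine genes Ccl2, Ccl3 and Cxcl2. Summed B cell marker FPKM, 1277 and 2209 in these macrophage libraries, was 22.8 and 21.8 in the leukemia cells, and its part in the levels of the 10 genes was not tested.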

How the data were processed

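RNA of sorted macrophages and leukemia cells was sequenced in 6 libraries, 1 per condition, and groups were taken from the labels. The authors deposited FPKM for 54532 genes, and the submitters' processing notes name Bowtie2 2.2.5, RSEM and mm10. Reads were recovered by multiplying FPKM by the exon length of GENCODE M21. Between 96.8% and 97.0% of values above 0 were whole within 0.05 reads (for Dusp1 they are approximate). Pairs were compared on log2(FPKM + 1) after TMM scaling (trims 0.3 and 0.05, coded by hand) for genes with at least 10 reads in 1 of the pair. A gene was called at a fold of 2, without a test, since there are no replicates. This scale understates changes of low genes. Additive fits over 4 libraries used limma 3.58.1 in R 4.3.3 (at least 10 reads in 2 libraries, Benjamini-Hochberg adjusted p at or under 0.05). Intervals are 95% and cover counting error only. The SE and p of the limma fits rest on 1 residual degree of freedom, without replicates of a condition. The fold rule in leukemia cells and the limma fits for leukemia and for cell type were tested on simulated data.

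The members and gene lists were chosen with earlier results of these data known. The rule for named genes was the members, the largest changes of each list among those at a fold of 2, and the 5 genes most like Fos. Names outside it (marker genes, Fosl1, Fosl2 and Jund in the families, genes overlapping a member, and genes of short counts such as Rhob and Klf10) were given after their values were seen. Of the lists, T cell markers (1 of 2 above 0 in leukemia cells with iron), progenitor markers (3 of 6) and MLL-AF9 targets (4 of 8) have their counts given only here. Symbols were found for 54409 genes. Alternatives were other scalings, pseudocounts, read minimums and a length correction. Calculations ran in Python 3.11.15 (numpy 2.4.6, pandas 2.3.3 and scipy 1.17.1).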

Additional observations from a re-analysis of the deposited data

Results flagged for a closer look

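In some genes the same contrast went in opposite directions in different cells, and each direction rests on 1 library per condition, so the difference was not tested. Those with leukemia cells contain the comparison that chose the genes. With iron, Egr1 was higher in leukemia cells (log2 fold change 1.04) and lower in macrophages without leukemia (-0.16), a difference of 1.20. Atf3 gave 0.76 and -0.36, a difference of 1.12, and Zfp36 gave 0.47 and -0.08, a difference of 0.55. The macrophages of leukemic and other mice also differed in sign with iron, by 0.24 for Egr1 (0.08 and -0.16) and by 0.50 for Zfp36 (0.42 and -0.08). The leukemia contrast of Zfp36 in macrophages was 0.26 with and -0.21 without iron, a difference of 0.46. The last of these uses the same 4 libraries as the iron difference of Zfp36 in macrophages, and is the same interaction but for scaling.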

How the results depend on the processing

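No paired analysis was possible because each condition has 1 library and the labels give no replicate numbers, and leaving out a library from a fit of 4 leaves no residual. The members' differences with iron in leukemia cells moved little over the alternatives: Fosb from 1.84 to 1.90, Fos from 1.63 to 1.66, Dusp1 from 1.08 to 1.11, Egr1 from 1.02 to 1.10 and Junb from 0.23 to 0.26 (log2). Of 570 values of single members, 523 stayed, 40 moved and 7 lost their call, and of 156 summary values 31 moved and 125 stayed. A change of the minimum of reads could not alter a member's fold change within a pair, so those values stayed by construction. In limma, a member's value counted as stayed where its call did not change. The counts that stayed are therefore not a measure of robustness.

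The counts of all genes at a fold of 2 depended on the treatment of low values. In the order leukemia cells with iron, macrophages with iron (WT, then MA9), macrophages with leukemia (without, then with iron) and leukemia cells against macrophages (without, then with iron), they were 133, 213, 405, 794, 755, 3398 and 3824. With a pseudocount of 0.1 they were 629, 783, 1497, 1977, 2080, 5800 and 6487. With no minimum of reads the first 3 were 375, 481 and 731, and with at least 50 reads 60, 116 and 234. With the trend on exon length removed, the split of calls changed from 197 higher and 208 lower to 127 and 299 for iron in MA9 macrophages, and from 485 and 270 to 330 and 404 for leukemia in macrophages with iron. For that last comparison a pseudocount of 0.1 gave 1069 and 1011, and for leukemia without iron it gave 1336 and 641, from 640 and 154.

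Members' medians moved with scaling. For iron in WT macrophages the median was 0.12 with the length trend removed. For iron in MA9 macrophages it was 0.24 with total and with median-of-ratios scaling and 0.20 with the length trend removed. For leukemia in macrophages with iron it was 0.35 with median-of-ratios scaling and 0.24 with the length trend removed, and for leukemia cells against macrophages with iron -1.08 and -1.09.

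In limma, iron in macrophages gave 0 genes with a pseudocount of 0.1 (808 at an unadjusted p under 0.05), 0 with no minimum of reads (941) and 34 with a variance trend. Leukemia in macrophages gave 216, 0 (2880 unadjusted) and 807, against 363, and Atf3 was lost in the first 2 of these, leaving 0 of the members. Cell type gave 2923 genes with no minimum of reads, against 6409. The cause was not tested. The members had at least 427 reads in every library.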

Other observations

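In macrophages without leukemia, all 14 heat shock genes tested were lower with iron (median -0.31, summed FPKM 1156 and 903), where 46.7% of all genes were above 0. In macrophages of leukemic mice the sums were 1667 and 1581. There 9 of 15 genes were above 0 with iron, against 51.8% of all genes. Each direction rests on 1 library per condition. Hspa1a was at 7.72 and 6.48 FPKM in the WT and WT/FE libraries, at 22.6 and 28.5 in macrophages of leukemic mice, and at 0.82 and 2.68 in leukemia cells. Hspa1a and Hspa1b are near-identical copies, so reads may be split between them. Rhob, an immediate early GTPase gene, was at 165 and 281 FPKM in leukemia cells without and with iron, and at 66.1 to 142 in macrophages, and was named after its values were seen.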
